A study of Gallus gallus with 8 samples.

Results

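Solute carriers are the large superfamily of membrane proteins that move amino acids, sugars, ions, metals, vitamins and metabolic intermediates across the plasma membrane and the membranes of organelles. Their families are numbered, and most members of a family share a kind of substrate. In the brain, members at synapses and glia clear and recycle transmitters, members at the blood vessels import glucose, lactate and amino acids, and members of family 25 carry nucleotides, phosphate and organic acids across the inner mitochondrial membrane. The hypothalamus, which governs feeding and energy balance, was compared at 4 ages in chickens of a fat line, FL, and of the lean line LL. The members described here are all spots of a chicken cDNA array whose annotated symbol starts with SLC and a number: 202 of the 19200 spots, for 192 clones and 121 genes. SLC9A3R1 and SLC9A3R2, scaffold proteins of a sodium and proton exchanger, and SLC7A6OS, a gene on the opposite strand of SLC7A6, match by symbol but are not carriers, and are counted apart by class.

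The groups were FL at weeks 1, 3, 5 and 7 and LL at weeks 1, 3, 5 and 7, with 4 arrays each and 32 in all. FL and LL are lines of broiler type raised under a standard broiler protocol, per the labels, which name no sex and no treatment. Each array set the Cy3-labelled RNA of 1 hypothalamic sample against a Cy5-labelled pool of all the samples, so a value is a log2 ratio of sample to pool and a value of 0 equals the pool. In whole tissue, fewer cells of a type and less RNA per cell cannot be told apart.

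The median Cy3 signal of an array was 2.57 to 8.45 times the local background, and 29 to 141 of the 192 solute carrier clones were above background on an array. The FL arrays of week 1 had a mean signal of 3.96 ± 0.718, against 6.05 ± 1.76 for the LL arrays of week 1 (SD, n = 4 each). Among the hypothalamic markers, POMC was above background on 30 arrays and NPY on 7, and the other 18 were not on the annotated array. POMC is also on the pituitary list, so its signal does not tell these tissues apart. Of 10 listed pituitary markers 7 were on the annotated array. Among these, GH and PRL were above background on all 32 arrays, and 1 marker was above it on none. Over the tested clones, most arrays had their highest mean correlation with a group other than their own, often LL at week 5. FL week 7 replicate 4, for example, had 0.24 with its own group and 0.54 with LL at week 5. Negative mean correlations with the own group occurred only on the arrays named next. The array labelled FL week 7 replicate 3 had a mean correlation of -0.11 with the other FL arrays of week 7 over the tested clones and of 0.40 with the FL arrays of week 1. The array labelled LL week 3 replicate 1 had a mean correlation of -0.19 with its own group, against 0.21 with the FL arrays of week 1. Calls that these arrays change, and named differences that they move by more than 1.5 times, are given with and without them. These arrays were singled out by correlations in these same data. Fits without them show how a result depends on an array and are not independent tests. An alternative fit left out FL week 1 replicate 4 together with them, although that array correlated best with its own group, at 0.37.

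The identity of the clones limits what the gene names can carry. The spot names of the array files and of the authors' series table differ, and the array files' names were used. By these, spots of ribosomal protein genes, which most cells transcribe strongly, had a median log2 signal of 12.68 over 79 spots, against 11.02 over all named spots. Pairs of spots with the same accession agreed in brightness with a Spearman rho of 0.42 over 702 pairs, but of -0.06 over the 447 pairs whose accession lies on at most 6 spots. Among the solute carriers, 17 genes had several tested clones. The correlation of 2 clones of a gene across the arrays had a median of 0.07 over 23 pairs and exceeded 0.5 in 2 pairs. These were the brightest and second clones of SLC25A6 with r = 0.97, and a pair of clones of SLC12A4, a potassium and chloride cotransporter, with r = 0.77. A value below therefore belongs to a clone. Other tested clones of a named gene are given for some genes and comparisons only, so their absence does not mean that none exists. Partner and marker genes are each shown by their brightest tested clone alone.

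Of the 192 clones, 86 clones from 66 genes passed the filter on dim clones and were tested. Over all clones 7947 of 17708 were tested, a share close to that of the solute carriers. By substrate, the tested clones were 18 for amino acids and neurotransmitters, 6 for carboxylates, fatty acids and bile acids, 10 for inorganic ions, 11 for metals, 16 mitochondrial carriers, 10 for nucleosides and nucleotide sugars, 6 for sugars, 7 for vitamins, peptides and organic ions, and 2 that are not carriers. The other 55 genes had no tested clone, and 19 of them were above background on no array. These 19 were SLC12A9, SLC16A12, SLC16A6, SLC25A15, SLC25A20, SLC25A4, SLC27A2, SLC2A10, SLC2A6, SLC2A8, SLC30A6, SLC30A7, SLC33A1, SLC34A1, SLC35E3, SLC4A10, SLC51A, SLC6A4 and SLC9A7. Some transmitter and fuel carriers fell below the filter, while 18 of 34 clones of the amino acid and neurotransmitter class passed it. SLC32A1, which loads GABA and glycine into synaptic vesicles, was above background on 1 array, SLC6A9, a glycine transporter of glia, on 7, SLC2A2, a glucose transporter, on 1, and SLC16A1, a lactate transporter, on 5.

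**Figure D1:**
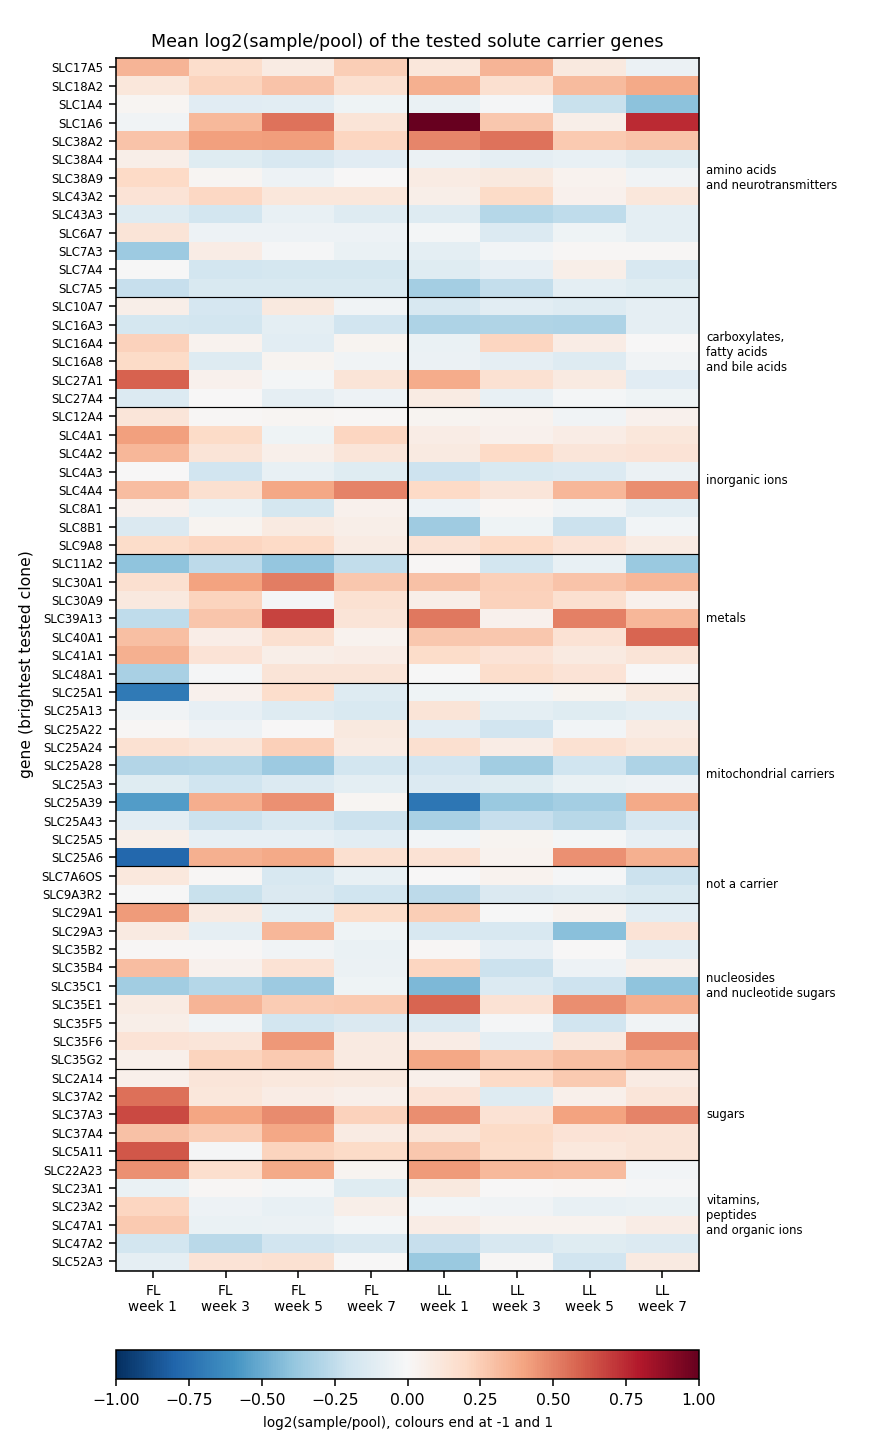
Mean log2 ratio of sample to pool for the 66 tested genes (rows, brightest tested clone, by substrate class) in the 8 groups (columns, FL to the left of LL, 4 arrays each). The FL column of week 1 holds the lowest mean of SLC25A6, -0.79, and of SLC25A1, -0.71, and the colour scale ends at -1 and 1.

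Across all comparisons 1 solute carrier clone passed the threshold, an adjusted p under 0.05. SLC48A1, which carries heme out of lysosomes, rose between weeks 1 and 7 in FL. Its log2 ratios were 0.04, 0.35, 0.11 and 0.01 on the FL arrays of week 7, against -0.15, -0.48, -0.26 and -0.42 on those of week 1. All FL arrays of week 7 were higher than all FL arrays of week 1. The difference was 0.46 ± 0.11 (log2, SE, 1.37-fold, adjusted p = 0.0414), and of all clones 1.21% passed in this comparison and 6.96% had groups that did not overlap. The means were -0.33 ± 0.15, -0.01 ± 0.10, 0.13 ± 0.04 and 0.13 ± 0.15 in FL at weeks 1, 3, 5 and 7, and the LL means at the same ages were -0.0048 ± 0.11, 0.17 ± 0.25, 0.13 ± 0.11 and 0.0012 ± 0.22 (SD, n = 4 each). In LL the difference between weeks 7 and 1 was 0.01 ± 0.11 (adjusted p = 0.993), with a 95% interval from -0.23 to 0.24, and the line by age interaction did not pass (adjusted p = 0.711). Some markers of other cells changed over the same ages. HBBA, a globin of red cells, fell by 1.33 in FL (adjusted p = 0.00245) and by 1.37 in LL (adjusted p = 0.00151). The other of the 2 tested red cell markers differed by -0.0047 in FL and -0.011 in LL. ENPP2, an oligodendrocyte marker, rose by 1.52 in FL (adjusted p = 0.0378) and differed by 0.96 in LL (adjusted p = 0.433). It was the highest of 3 tested oligodendrocyte markers. Their median difference was 0.03 in FL and 0.56 in LL, and the lowest was -0.04 and -0.08. The part of these markers in the differences between ages was not tested.

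The call for SLC48A1 depended on the arrays and the processing. Its adjusted p ranged from 0.0173 to 0.199 with 1 array left out in turn, and it passed in 22 of 32 such fits. It failed without FL week 1 replicate 2 (0.192), 3 (0.0672) or 4 (0.102) and without FL week 7 replicate 1 (0.0965), 2 (0.199) or 4 (0.0805). It was just above the threshold without FL week 5 replicate 2 (0.050015) or 3 (0.05008), and without LL week 5 replicate 1 (0.0509) or 3 (0.0542). Without the array labelled FL week 7 replicate 3 the difference was 0.46 (adjusted p = 0.0272), and without that array, FL week 1 replicate 4 and LL week 3 replicate 1 together it was 0.43 (adjusted p = 0.0538). With the authors' own log2 ratios the difference was 0.07 (adjusted p = 0.716), and with no background subtraction it was 0.17 (adjusted p = 0.302). It passed in 6 of 14 other settings, and with the replicate number as a block its adjusted p was 0.0516, while SLC25A6 was at 0.0488. The second clone of SLC48A1 had values of 0.42, 0.12, -0.30 and 0.25 in FL at week 7, against 0.49, -0.04, 0.08 and -0.41 in FL at week 1. These groups overlapped, with a difference of 0.09 ± 0.23 (adjusted p = 0.895), and in LL the second clone had an interval from -0.04 to 0.93.

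Between the lines at week 1, the youngest age, no solute carrier passed, and the smallest p belonged to a mitochondrial carrier. Of all clones 0.239% passed there. An unadjusted p under 0.05 was reached by 17 of 86 solute carrier clones, or 19.8%, against 17.6% of all clones, a share near the background. With 1 array left out in turn, the number ranged from 10 to 22, and the clones of any gene past the threshold from 2 to 176. Of the 17, 6 were higher and 11 lower in FL, against 7.81% higher and 9.8% lower over all clones. The median difference of the 86 clones was 0.09, against 0.05 over all clones. By class, 6 of 16 mitochondrial carrier clones reached an unadjusted p under 0.05, 1 higher and 5 lower. The lower ones included the brightest and second clones of SLC25A6, which correlated at 0.97 across the arrays. All 10 clones of inorganic ion carriers had differences above 0, from 0.04 to 0.37, of which 1 reached an unadjusted p under 0.05. Differences above 0 made up 58.9% of all clones.

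**Figure D2:**
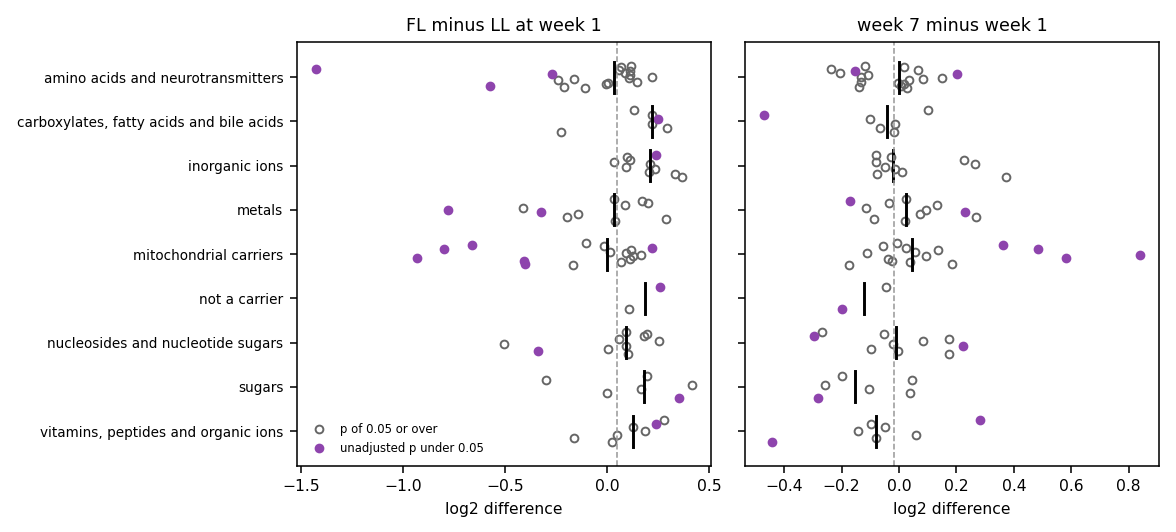
Log2 difference (horizontal axis) of each tested clone by substrate class (rows), for FL minus LL at week 1 on the left and week 7 minus week 1 on the right. Filled points have an unadjusted p under 0.05, black bars are class medians and the dashed line is the median of all 7947 clones; the mitochondrial carriers reach -0.93 on the left and 0.84 on the right.

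SLC25A6, an ADP/ATP translocase that exports the ATP made in mitochondria, had the smallest p of the family between the lines at week 1. On its brightest clone the FL arrays of week 1 read -0.06, -1.11, -1.01 and -0.97, and the LL arrays of week 1 read 0.29, 0.26, -0.23 and 0.24. The lines overlapped through 1 array each, FL replicate 1 and LL replicate 3. The difference was -0.93 ± 0.25 (log2, SE, 1.91-fold lower in FL, adjusted p = 0.0816), and all 4 FL arrays lay below the LL mean. The second clone read 0.02, -0.49, -0.78 and -0.74 in FL, against 0.43, 0.05 and 0.42 on the 3 LL arrays with a value. These groups did not overlap, as in 12.5% of all clones, and the difference was -0.80 ± 0.25 (adjusted p = 0.128). The third clone read 0.14, -0.18, -0.08 and 0.29 in FL and -0.03, 0.02, -0.14 and -0.14 in LL, with a difference of 0.11 ± 0.14 (adjusted p = 0.678) and correlations of -0.38 and -0.50 with the other clones across the arrays.

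At later ages the lines overlapped on the brightest clone of SLC25A6. The FL means were 0.35 ± 0.19, 0.38 ± 0.17 and 0.16 ± 0.67 at weeks 3, 5 and 7, and the LL means were 0.04 ± 0.50, 0.46 ± 0.11 and 0.35 ± 0.17 (SD, n = 4 each). The intervals of the line difference reached from -0.19 to 0.83 at week 3, from -0.59 to 0.43 at week 5 and from -0.71 to 0.32 at week 7, and the interaction did not pass (adjusted p = 0.590). In FL, the week 7 arrays read 0.25, 0.57, -0.80 and 0.64. The value of -0.80 belongs to the array labelled replicate 3, the one that resembled week 1. Between weeks 7 and 1 in FL the difference was 0.95 ± 0.25 (adjusted p = 0.0588), and without that array it was 1.27 (adjusted p = 0.00086). The array left out was picked for resembling week 1 in these same data, so the second p-value is not an independent test of a change with age. Without that array the line difference at week 1 was unchanged at -0.93, with an adjusted p of 0.0133. The spread is shared by all groups in the fit. In that fit the second clone passed as well, at week 1 (adjusted p = 0.0378) and between weeks 7 and 1 in FL at 1.04 (adjusted p = 0.00345). Without FL week 1 replicate 1 that line difference was -1.17 (adjusted p = 0.0221), and without 3 arrays together (FL week 7 replicate 3, FL week 1 replicate 4, LL week 3 replicate 1) it was -0.87 (adjusted p = 0.0338). The difference between weeks 7 and 1 in FL also passed without FL week 1 replicate 1 (adjusted p = 0.00793), LL week 3 replicate 1 (0.0465) or LL week 3 replicate 4 (0.0419), and without the 3 arrays together it was 1.21 (adjusted p = 0.00276).

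**Figure D3:**
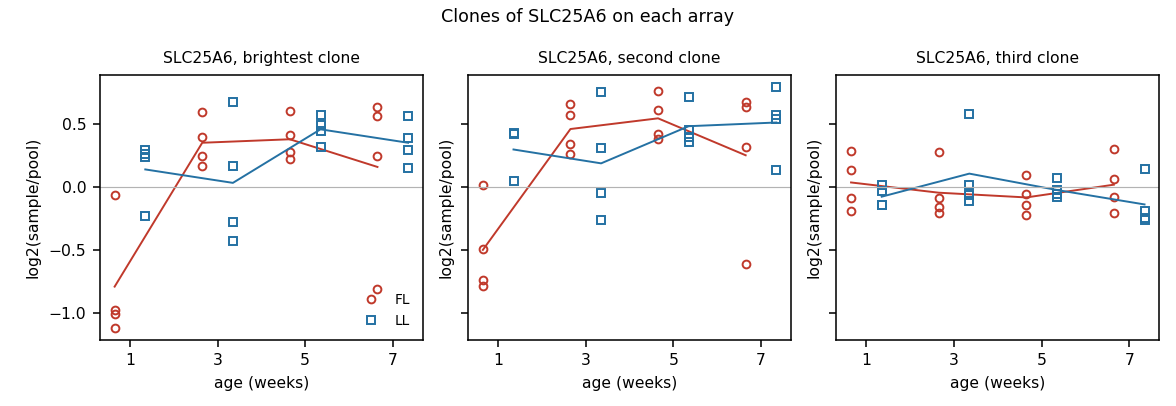
Log2 ratio of sample to pool (vertical axis) of the 3 tested clones of SLC25A6 on each array by age in weeks (horizontal axis), FL as red circles to the left of LL as blue squares, with lines through the group means. The brightest and second clones are low on 3 of the 4 FL arrays of week 1 and on 1 FL array of week 7, and the third tested clone is not. Low values are not confined to FL. The brightest clone read -0.23 on LL week 1 replicate 3, and its LL values were most spread at week 3.

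Array signal and line cannot be fully told apart at week 1, where the mean signal was 3.96 in FL and 6.05 in LL. With the log2 signal as a covariate the line difference of the brightest SLC25A6 clone at week 1 was -0.75 (adjusted p = 0.328). In that fit no clone of any gene passed between the lines at week 1. The clone's difference between weeks 7 and 1 over both lines was 0.58 in that fit (adjusted p = 0.0496). It was also 0.58 without the covariate (adjusted p = 0.0713). Across the 32 arrays the clone's ratio had a correlation of 0.42 with the log2 signal, and the third clone's ratio had -0.56. These are descriptions over arrays that share the pool. The part of array signal in the line difference was not tested. Of the 10 listed neuron markers 7 were tested, with a median line difference of -0.59 at week 1, and 1 was above 0. An unadjusted p under 0.05 was reached by 4 of the 7, against 17.6% of all clones, while 0 passed the threshold. Their mean level per array lay between -0.36 and -0.09 in FL at week 1 and between 0.12 and 0.41 in LL at week 1. Of the anterior pituitary markers 6 were tested, 5 with differences above 0, the highest 0.93, and 1 reached an unadjusted p under 0.05. Their mean level per array lay between -0.15 and 0.18 in FL at week 1 and between -0.38 and -0.12 in LL at week 1. The 3 tested oligodendrocyte markers all had differences below 0, the lowest -1.15 for ENPP2 (adjusted p = 0.155), which alone reached an unadjusted p under 0.05. Their mean level per array lay between -1.02 and 0.58 in FL at week 1 and between -0.31 and 0.77 in LL at week 1. Of 4 tested astrocyte markers, 2 had differences above 0, the highest 0.63, and 1 reached an unadjusted p under 0.05. The 3 tested endothelial markers were all above 0, the highest 0.54. Differences were above 0 for 3 of 4 tested choroid plexus and ependyma markers and 1 of 2 tested microglia markers. In these last 3 lists 0 reached an unadjusted p under 0.05. None of the markers in this paragraph passed, and the part of cell content in the result was not tested.

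The 16 tested mitochondrial carrier clones split evenly at week 1, with 8 line differences above 0 and 8 below. Their median was 0.003, against 0.05 over all clones, and none passed with all arrays included. SLC25A1, which exports mitochondrial citrate for fatty acid synthesis, read -0.39, -0.67 and -1.07 on the 3 FL arrays with a value and 0.28, 0.26, -0.30 and -0.43 in LL. The lines overlapped, with a difference of -0.66 ± 0.21 (adjusted p = 0.129, and 0.0499 without FL week 7 replicate 3). The second clone of SLC25A1 was above background on no FL array of week 1 and on 3 LL arrays, and its line difference did not pass (adjusted p = 0.845). Its mean normalised Cy3 level (log2) was not lower in FL, at 10.58, than in LL, at 10.36, so no fold is given. SLC25A3, the mitochondrial phosphate carrier, read 0.03, -0.47, -0.41 and -0.30 in FL on its second clone, against 0.39, 0.01, -0.06 and 0.10 in LL. Its difference was -0.40 ± 0.14 (adjusted p = 0.157), but its brightest clone differed by 0.02 ± 0.08 (adjusted p = 0.927). SLC25A5, another ADP/ATP translocase, differed by 0.09 ± 0.15 on its brightest clone (adjusted p = 0.764) and by -0.41 ± 0.18 on the second (adjusted p = 0.235). SLC25A43, a mitochondrial family member, differed by 0.22 ± 0.09 (adjusted p = 0.189).

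In other classes no solute carrier passed at week 1 either, and the clones with the smallest p had differences of either sign. SLC48A1 differed by -0.32 ± 0.11 (adjusted p = 0.157). SLC4A2, a chloride and bicarbonate exchanger, read 0.25, 0.24, 0.44 and 0.39 in FL and 0.10, 0.04, 0.21 and 0.02 in LL. Its lines did not overlap, as in 12.5% of all clones, with a difference of 0.24 ± 0.08 (adjusted p = 0.157). SLC39A13, a zinc transporter of the ZIP family, read -0.28, -0.04, -0.05 and -0.64 in FL and 0.48, 0.39, 0.42 and 0.80 in LL on its brightest clone. These did not overlap either, with a difference of -0.78 ± 0.30 (adjusted p = 0.186), while the other 2 tested clones of SLC39A13 differed by 0.09 ± 0.10 (adjusted p = 0.669) and 0.29 ± 0.15 (adjusted p = 0.299).

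SLC1A6, a glutamate transporter, had a line difference of -1.43 ± 0.64 at week 1 (adjusted p = 0.244). It read 0.03, 0.21, -0.36 and -0.02 in FL and 5.29, -0.01, 0.25 and 0.02 in LL, so 1 LL array carried the difference. SLC5A11, a sodium-dependent inositol transporter, read 0.71, 0.59 and 0.57 on the 3 FL arrays with a value and 0.46, 0.25, 0.25 and 0.10 in LL, a difference of 0.36 ± 0.15 (adjusted p = 0.235). Its second clone differed by -0.30 ± 0.18 (adjusted p = 0.4). SLC16A8, a lactate transporter, differed by 0.25 ± 0.11 (adjusted p = 0.230), SLC7A3, a transporter of cationic amino acids, by -0.27 ± 0.12 (adjusted p = 0.235), SLC23A2, which imports ascorbate, by 0.24 ± 0.11 (adjusted p = 0.265) and the scaffold SLC9A3R2 by 0.26 ± 0.12 (adjusted p = 0.26). A second clone of SLC38A4, a sodium-coupled carrier of neutral amino acids, differed by -0.57 ± 0.23 (adjusted p = 0.198), and the other tested clones by 0.12 ± 0.09 and -0.11 ± 0.09. The second clone of SLC7A3 differed by 0.06 ± 0.26 (adjusted p = 0.922).

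Some of these clones correlated with the brightest clone of SLC25A6 over the 32 arrays. Other tested clones of their genes, where there were any, correlated less, hardly at all or with the opposite sign. The brightest clone of SLC25A6 correlated at 0.75 with the second clone of SLC25A3, at 0.75 with the second clone of SLC38A4, at 0.72 with SLC25A1 over 31 arrays, and at 0.67 with SLC39A13. It correlated at -0.83 with SLC38A9, at -0.75 with SLC23A2 and at -0.75 with SLC4A2. These clones were picked as the ends of the ranking over the tested solute carrier clones. The brightest clone of SLC25A3 correlated at 0.34 and the second clone of SLC25A1 at 0.06. The other tested clones of SLC38A4 correlated at -0.55 and 0.14, and those of SLC39A13 at 0.18 and -0.46. These are descriptions across arrays that share the pool, the labelling and the signal of each array.

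Between weeks 1 and 7, over both lines, no solute carrier passed while 2.55% of all clones did. An unadjusted p under 0.05 was reached by 15 of 86 clones, or 17.4%, against 18.9% of all clones, with 8 higher and 7 lower at week 7, against 9.1% higher and 9.82% lower over all clones. Their median difference was -0.01, against -0.02 over all clones. The 4 mitochondrial carrier clones with an unadjusted p under 0.05 were all higher at week 7. They included the brightest and second clones of SLC25A6, which correlated at 0.97 across the arrays. The 6 sugar carrier clones had a median of -0.15.

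SLC22A23, a member of the organic ion family without a settled substrate, had the smallest p with age. It read 0.11, -0.24 and 0.21 in FL and -0.08, -0.30 and 0.30 in LL at week 7, against 0.75, 0.53 and 0.08 in FL and 0.17, 0.49, 0.33 and 0.72 in LL at week 1. All 6 arrays of week 7 with a value lay below the week 1 mean of their line, and the ages overlapped. The difference was -0.44 ± 0.12 (adjusted p = 0.0551), with 3 arrays of these 4 groups giving no value. Left out singly, FL week 1 replicate 1 (adjusted p = 0.0336) or 4 (0.0270) brought it past the threshold. So did replicate 1 of LL at week 1 (0.0443) or at week 3 (0.0492), and replicate 4 of LL at week 7 (0.0349). The brightest clone of SLC25A6 differed by 0.58 ± 0.18 (adjusted p = 0.0713) and the second by 0.48 ± 0.17 (adjusted p = 0.123). Without the array labelled FL week 7 replicate 3 these were 0.74 (adjusted p = 0.00396) and 0.63 (adjusted p = 0.0117), and SLC25A1, at 0.36 ± 0.14 (adjusted p = 0.165) with it, was 0.47 without it (adjusted p = 0.0264). Without FL week 1 replicate 1 the SLC25A6 clones were at 0.70 (adjusted p = 0.0124) and 0.57 (adjusted p = 0.0423). The third clone of SLC25A6 differed by -0.04 ± 0.10 (adjusted p = 0.859).

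SLC38A9, a lysosomal amino acid sensor of the mTORC1 pathway, read -0.01, -0.04, 0.20 and -0.14 in FL and 0.06, -0.11, 0.0039 and -0.08 in LL at week 7. At week 1 it read 0.02, 0.23, 0.19 and 0.35 in FL and 0.08, -0.0042, 0.16 and 0.09 in LL. The ages overlapped, with a difference of -0.15 ± 0.06 (adjusted p = 0.132) that was -0.19 without FL week 7 replicate 3 (adjusted p = 0.0337) and -0.18 without FL week 1 replicate 1 (adjusted p = 0.0427). SLC48A1 differed by 0.23 ± 0.08 (adjusted p = 0.116).

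The remaining clones named by p had differences between weeks 7 and 1 as follows. SLC41A1, a magnesium transporter, differed by -0.17 ± 0.07 (adjusted p = 0.156) and the other tested clone by -0.03 ± 0.24; without FL week 1 replicate 1 it was -0.22 (adjusted p = 0.0334). SLC5A11 differed by -0.28 ± 0.11 (adjusted p = 0.161) and its second clone by 0.05 ± 0.14. SLC29A1, an equilibrative nucleoside transporter, differed by -0.30 ± 0.12 (adjusted p = 0.175), and SLC7A3 by 0.20 ± 0.08 (adjusted p = 0.183). SLC25A39, which carries glutathione into mitochondria, differed by 0.84 ± 0.33 (adjusted p = 0.178) with 23 values over 32 arrays. LL at week 1 had 2 of these values, and the difference was 1.44 without replicate 1 of that group (adjusted p = 0.0138) and 0.24 without its replicate 4 (adjusted p = 0.698). SLC7A6OS differed by -0.20 ± 0.09 (adjusted p = 0.209). The second clone of SLC35B4, a transporter of nucleotide sugars, differed by 0.22 ± 0.08 (adjusted p = 0.142) and its brightest by -0.27 ± 0.15 (adjusted p = 0.345).

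**Figure D4:**
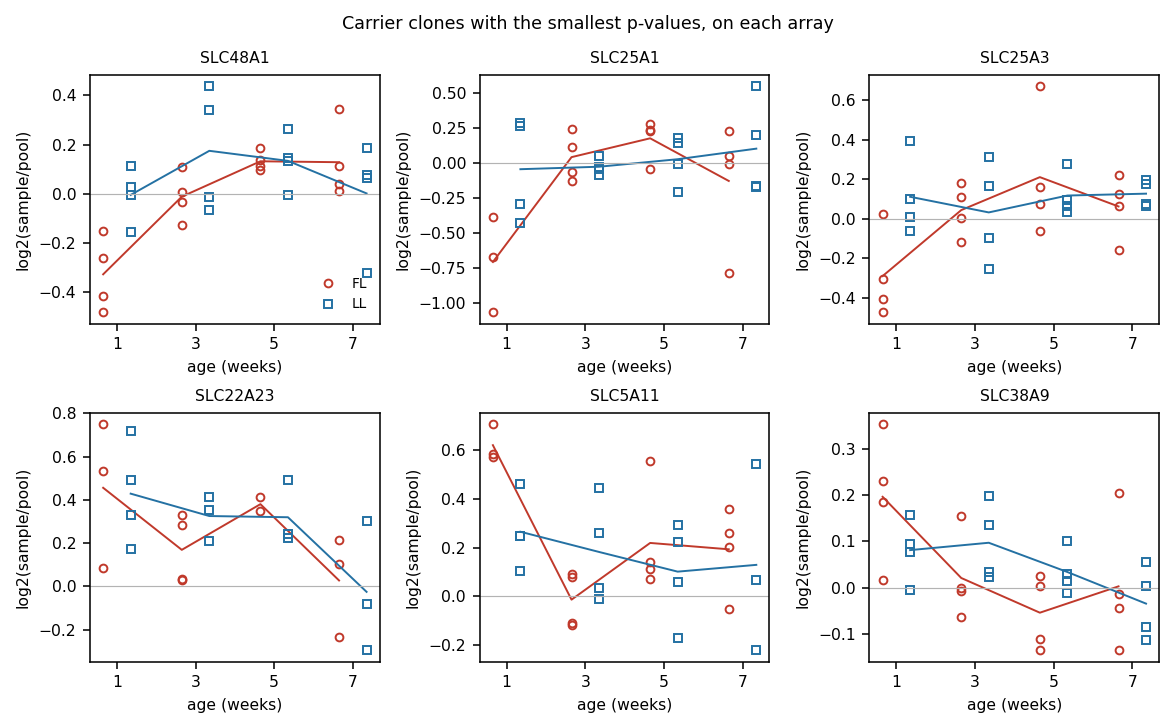
Log2 ratio of sample to pool (vertical axes, scaled per panel) on each array by age in weeks, FL as red circles to the left of LL as blue squares, with lines through the group means. SLC48A1, SLC25A1 and the second clone of SLC25A3 are lowest in FL at week 1, SLC5A11 is highest there with a mean of 0.62, and SLC22A23 is lowest at week 7 in both lines.

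No solute carrier passed in any other comparison. Between the lines across the ages 0.0503% of all clones passed, and 2 of 86 solute carrier clones reached an unadjusted p under 0.05, against 4.87% of all clones. With 1 array left out in turn that number ranged from 0 to 10. The smallest p values were those of SLC35G2, an orphan of the nucleotide sugar family, at -0.17 ± 0.08, SLC37A4, the glucose 6-phosphate transporter, at 0.11 ± 0.06, SLC52A3, a riboflavin transporter, at 0.16 ± 0.09 and SLC25A6 at -0.22 ± 0.13, each with an adjusted p of 0.827. Without FL week 7 replicate 3, SLC35G2 was at -0.098 and SLC25A6 at -0.14 (adjusted p = 0.935 for both). At weeks 3, 5 and 7 none of 7947 clones passed between the lines, and 1, 3 and 3 solute carrier clones reached an unadjusted p under 0.05, against 2.27%, 2.87% and 3.61% of all clones.

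At week 3 the smallest p values of the family between the lines were those of SLC48A1 at -0.19 ± 0.11, SLC25A39 at 0.73 ± 0.45, SLC5A11 at -0.20 ± 0.14 and SLC30A1, a zinc exporter, at 0.17 ± 0.13. At week 5 they were those of SLC7A4, a member of the cationic amino acid family, at -0.24 ± 0.10, SLC37A4 at 0.25 ± 0.12, SLC52A3 at 0.34 ± 0.18 and SLC29A3, a lysosomal nucleoside transporter, at 0.75 ± 0.39. The difference of SLC29A3 was 0.13 without FL week 5 replicate 2, 0.42 without LL week 5 replicate 2 and 0.025 with the authors' log2 ratios, and that of SLC7A4 was -0.077 without LL week 5 replicate 3. At week 7 they were those of SLC35C1, a Golgi carrier of GDP-fucose, at 0.36 ± 0.15, SLC1A4 at 0.36 ± 0.17, SLC40A1, the iron exporter ferroportin, at -0.55 ± 0.29 and SLC29A1 at 0.28 ± 0.17. SLC29A1 was at 0.19 there without FL week 7 replicate 3, and SLC40A1 at -0.35 without LL week 7 replicate 3. SLC1A4 ranged from 0.089 to 0.53 there with 1 array left out in turn. The adjusted p was above 0.99 for all of these clones with all arrays included.

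Between adjacent ages, 11 solute carrier clones reached an unadjusted p under 0.05 from week 1 to week 3, or 12.8%, against 12.1% of all clones, of which 0.138% passed. The smallest were SLC5A11 at -0.36 ± 0.11 (adjusted p = 0.172), SLC48A1 at 0.25 ± 0.08 (adjusted p = 0.211), SLC7A3 at 0.25 ± 0.08 (adjusted p = 0.226) and SLC25A6 at 0.52 ± 0.18 (adjusted p = 0.239). From week 3 to week 5, 0 reached it, against 1.98% of all clones, with SLC39A13 at 0.43 ± 0.21, SLC43A2, a transporter of branched-chain amino acids, at -0.12 ± 0.06, SLC35F5 at -0.17 ± 0.09 and SLC25A24, a calcium-regulated ATP-Mg and phosphate carrier, at 0.09 ± 0.07. SLC39A13 was at 0.22 without LL week 3 replicate 1. From week 5 to week 7, 1 reached it, against 1.02% of all clones, and this was SLC22A23 at -0.35 ± 0.13. SLC37A4 at -0.16 ± 0.08, SLC39A13 at -0.36 ± 0.21, which was -0.22 without FL week 7 replicate 3, and SLC7A4 at -0.11 ± 0.07 came next.

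Within the lines, 13 clones reached an unadjusted p under 0.05 between weeks 7 and 1 in FL, or 15.1%, against 14.5% of all clones, and 5 did in LL, or 5.81%, against 9.41%, where 0.0755% of all clones passed. In FL, SLC41A1 differed by -0.28 ± 0.09 (adjusted p = 0.14) and SLC25A1 by 0.58 ± 0.21 (adjusted p = 0.187). Without FL week 7 replicate 3, SLC25A1 passed at 0.80 (adjusted p = 0.0154), SLC7A3 at 0.40 (adjusted p = 0.0423) and SLC38A9 at -0.26 (adjusted p = 0.0499), and without FL week 1 replicate 1 SLC41A1 passed at -0.38 (adjusted p = 0.0205). In LL the smallest p values were those of SLC22A23 at -0.45 ± 0.17 (adjusted p = 0.433), SLC52A3 at 0.47 ± 0.18 (adjusted p = 0.433), SLC25A39 at 1.10 ± 0.48 (adjusted p = 0.503) and SLC1A4 at -0.34 ± 0.17 (adjusted p = 0.529). The SLC1A4 difference ranged from -0.50 to -0.068 with 1 array left out in turn. The interaction gave 6 clones an unadjusted p under 0.05, or 6.98%, against 6.8% of all clones, with SLC25A6, SLC25A1, SLC4A2 and SLC48A1 the smallest and SLC25A6 at an adjusted p of 0.590. The test of any change between ages gave 11, or 12.8%, against 12% of all clones, of which 0.931% passed, with SLC25A6 (adjusted p = 0.105), SLC48A1 (0.152), SLC22A23 (0.208) and SLC5A11 (0.241) the smallest. Without FL week 7 replicate 3 the brightest (0.00654) and second (0.0283) clones of SLC25A6 passed this test.

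**Figure D5:**
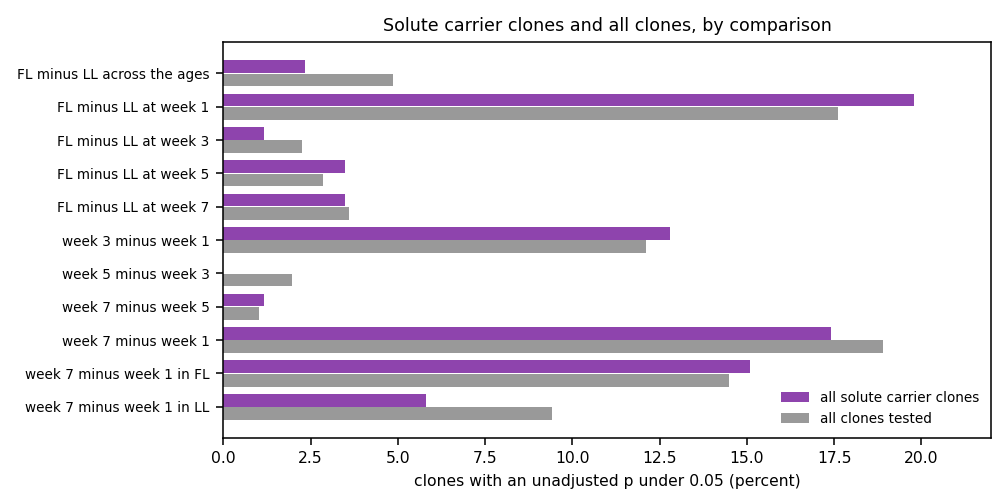
Percentage of clones with an unadjusted p under 0.05 (horizontal axis, bars from 0) in 11 comparisons, for the 86 solute carrier clones in purple and all 7947 clones in grey. The solute carrier share was 19.8% against 17.6% for the lines at week 1 and 17.4% against 18.9% between weeks 7 and 1.

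Carriers of synapses and glia that could be tested showed no difference past the threshold, and their intervals leave room for moderate ones. SLC18A2, which loads monoamines into vesicles, averaged 0.11 ± 0.19 in FL (n = 3) and 0.35 ± 0.10 in LL (n = 4) at week 1. Its line difference of -0.24 had an interval from -0.63 to 0.15, and between weeks 7 and 1 it differed by 0.04 ± 0.13. SLC38A2, a glutamine and alanine carrier, averaged 0.28 ± 0.70 in FL and 0.49 ± 0.52 in LL at week 1 (n = 3 each), with an interval of the difference from -0.77 to 0.36. SLC1A4, a neutral amino acid exchanger, read 0.01, -0.13, 0.08 and -0.15 in FL and 0.08, -0.11, -1.23 and -0.38 in LL at week 7, so the LL mean was set by 1 array. SLC1A6 was above background on no FL array of week 7 and on 2 LL arrays of that age. Its mean normalised Cy3 level (log2) was not lower in FL, at 10.57, than in LL, at 10.33, so no fold is given.

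Among fuel carriers, SLC16A3, a lactate exporter, differed between the lines by 0.13 ± 0.14 at week 1 and by 0.10 ± 0.10 between weeks 7 and 1. SLC7A5, which imports leucine and other large amino acids across the blood-brain barrier, averaged -0.23 ± 0.08 in FL and -0.34 ± 0.18 in LL at week 1 (n = 4 each). The interval of that difference was -0.19 to 0.41 on the brightest clone and -0.50 to 0.18 on the second. SLC27A1, a fatty acid transport protein, read -0.05, 0.24, 0.23 and 0.07 in FL and -0.41, -0.02, 0.03 and -0.04 in LL at week 7, against -0.02, 1.87, 0.16 and 0.34 in FL and 1.09, 0.05, 0.22 and 0.12 in LL at week 1. The ages overlapped, 1 array in each line carried most of the week 1 mean, and the difference was -0.47 ± 0.19 (adjusted p = 0.18). A dim clone of SLC27A1 that did not pass the filter went the other way, 0.93 with the filter left out (adjusted p = 0.0203). SLC27A4, another fatty acid transport protein, differed by -0.22 ± 0.14 at week 1 (adjusted p = 0.407).

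The list of 40 partner genes holds genes that power, regulate or metabolise for these transporters, and SLCO genes, which are themselves transporters. Of the 40, 18 were on the annotated array and 14 were tested, and the counts do not set the SLCO genes apart. Between the lines at week 1, 1 of the 14 passed, against 0.239% of all clones: ATP6V1B2, a subunit of the proton pump that energises vesicular transporters, at -0.96 (adjusted p = 0.0145). Between weeks 7 and 1, 2 passed, against 2.55% of all clones: ATP6V1B2 at 0.52 (adjusted p = 0.0272) and WNK1, a kinase that regulates chloride cotransporters, at 0.66 (adjusted p = 0.012), on a clone above background on 10 arrays. ATP1B1, a subunit of the sodium pump, differed by -0.65 between the lines at week 1 (adjusted p = 0.174). Of the 14 tested partners, 7 reached an unadjusted p under 0.05 between the lines at week 1, against 17.6% of all clones. Line differences at week 1 were above 0 for 6 of the 14, the highest 0.51, and the median was -0.10.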

How the data were processed

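Per the file headers, each deposited array file gives raw and background intensity per channel, spot area and quality letters with a key, beside the authors' own log2 ratio. The authors' deposited series table holds 1 log2 value per line and age, which is the mean of the 4 arrays' ratios within rounding, and was used only to check spot names. No source used here names the image software. Intensities per area were corrected with normexp at an offset of 50, turned into log2(Cy3/Cy5) and smoothed by loess within each array (span 0.3, 4 iterations; limma 3.58.1, R 4.3.3). Spots with an unsatisfactory letter and 960 empty spots were dropped. Spots of 1 accession were averaged into 17708 clones. Of these, 7947 were tested: Cy3 above the 95th percentile of empty spots on at least 3 arrays of a group, and at least 2 values in every group. This filter was tried in 4 forms, and the one whose number of clones came nearest to an earlier analysis of these data was kept. The forms giving 7806 and 7539 clones are alternatives.

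One limma model with 8 group means gave every comparison. Tests were two-sided, p-values were adjusted by Benjamini-Hochberg across all tested clones at a threshold of 0.05, errors of differences are SE and intervals are 95%. The number of arrays limits the precision. The lowest correlation between arrays was -0.16 over all clones and -0.38 over tested ones. The dyes are stated in the labels, so the sign was kept.

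Named were clones past the threshold, the 12 genes of smallest p at week 1 and between weeks 7 and 1, the 4 of smallest p elsewhere, and listed synapse, glia and fuel carriers. SLC12A4, SLC35B4 and the second clones of SLC25A3 and SLC38A4 were named after their values were seen. The brightest tested clone stood for a gene. Members and lists were chosen with earlier results of these data known. All 192 clones were found by gene number in the chicken gene table. The model was also run on simulated data with independent noise for each clone and array. Those data lack the correlated clones and outlying arrays seen here, so the run cannot give the error rate of these data.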

Additional observations from a re-analysis of the deposited data

Results flagged for a closer look

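A check for outlying arrays took the 26 solute carrier clones with an unadjusted p under 0.05 between the lines at week 1 or between weeks 7 and 1. Among their 94 groups of 4 arrays at weeks 1 and 7, 9 held an array far from the other 3. Chance gives about 1 in 20 for independent groups not chosen by their values. These clones were chosen by p-values from the same arrays and some correlate with each other, so the count cannot be compared with that rate. SLC1A6 read 5.29 on LL week 1 replicate 1, against -0.01 to 0.25 on the others. The brightest clone of SLC25A6 read -0.0595 on FL week 1 replicate 1, against -1.11 to -0.97, and -0.23 on LL week 1 replicate 3, against 0.24 to 0.29. SLC27A1 read 1.09 on LL week 1 replicate 1, against 0.05 to 0.22, and -0.41 on LL week 7 replicate 1, against -0.04 to 0.03. SLC35G2 read -0.74 on FL week 7 replicate 3, against 0.32 to 0.40, and 0.21 on LL week 7 replicate 3, against 0.38 to 0.40. SLC7A3 read -0.38 on FL week 7 replicate 3, against 0.01 to 0.08. SLC9A3R2 read -0.11 on FL week 1 replicate 1, against 0.02 to 0.04.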

How the results depend on the processing

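Solute carrier calls between weeks 7 and 1, 0 with the settings of the report, numbered 2 with no background subtraction, 2 with the authors' log2 ratio, 1 with print-tip loess, 1 with no filter on dim clones, 10 with array weights, 2 with array signal as a covariate and 4 without the 3 arrays together. Within FL the 1 call became 2 with no background subtraction, 6 with array weights and 2 without the 3 arrays, and 0 after scaling between arrays, with the signal covariate or with only the arrays compared. The 1 call was the second clone of SLC25A3 with the authors' ratio (0.45, adjusted p = 0.0279) and a dim clone of SLC27A1 with no filter on dim clones (1.23, adjusted p = 0.0382). Array weights gave 5 calls for any change between ages and 4 between weeks 3 and 1. Without the 3 arrays there were 2 for any change between ages and 1 between the lines at week 1. The other comparisons kept 0 solute carrier calls in all 14 alternative settings that could be run for them.

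With 1 array left out in turn the calls ranged from 0 to 3 between the lines at week 1, 0 to 2 for any change between ages, 0 to 5 between weeks 7 and 1, and 0 to 6 within FL. The highest counts at week 1 and within FL came without FL week 7 replicate 3. Among the 68 results of named clones, 3 turned direction under at least 1 setting. SLC37A4 at week 5 was -0.0396 with no background subtraction and -0.0099 with the authors' ratio, SLC7A4 at week 5 was 0.0358 with the authors' ratio, and SLC25A39 between weeks 7 and 1 in LL ranged from -0.0946 without LL week 1 replicate 4 to 2.30 without LL week 1 replicate 1. The cause of these changes was not tested.

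With the replicate block the count within FL was 1, but the clone was SLC25A6 (adjusted p = 0.0488) and SLC48A1 was at 0.0516. Arrays with the same number had correlations from -0.453 to 0.612 (median 0.0855, 112 pairs), against a median of -0.0275 for other numbers, and 16 of 32 arrays correlated best with their own number. Some of these correlations were below 0.1 and the numbers were not taken as pairs, a choice that these values do not settle. The arrays' mean Cy3 signal was 3.63 ± 0.709, 4.36 ± 0.694, 5.67 ± 1.18 and 6.84 ± 1.22 times the local background at numbers 1 to 4 (SD, n = 8 each), and whether a number marks a shared batch was not tested. The authors' ratio could be fitted for 4933 clones, 55 of them solute carriers. The call for SLC48A1 held in 6 of 14 settings: print-tip loess, any quality letter kept, the stricter dim filter, array weights and both forms of the dim filter chosen after seeing the data. With no filter on dim clones its adjusted p was 0.0586. Dim clones limit the family, since 44 of 192 were never above background, and the like share over all clones was not counted.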
